A study of Mus musculus with 6 samples.

Results

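The genes described are 54 genes of mitosis and chromosome segregation, among 54446 genes annotated in the files. They were listed by name from what they do in cell division, with earlier results of these data known. All 54 were found, and all 54 passed the filter on low values, a 6-library mean of 1 FPKM or more, which left 14991 genes. FPKM, fragments per kilobase of transcript scaled to the mapped fragments of a library, is a level adjusted for length and depth. Total RNA was measured by RNA-seq in 3 groups of 2 libraries each, all from CD8+ T cells taken from the spleens of C57BL/6 mice by negative selection. Unstimulated cells were sampled fresh. Control cells were stimulated through the T cell receptor with plate-bound antibodies to CD3 and CD28 for 72 h. SMF cells received the same stimulation while they were kept in a static magnetic field of 0.3 T. The age of the mice for these libraries is not given in the sources used here, and no source used here says whether the 2 libraries of a group came from separate animals or cultures, so the p values measure the spread between these libraries, which may be technical. The depth, as bases of transcript covered, came to 67.4 and 132 Mb for Unstimulated cells, to 64.4 and 172 Mb for Control cells and to 259 and 227 Mb for SMF cells (replicates 1 and 2 here and below). The headers placed Unstimulated 1 and Control 1 in 1 sequencing run, Unstimulated 2 and Control 2 in another, and both SMF libraries in the last of 3 runs. No run held SMF and Control libraries together, so the field and the run cannot be told apart in these files.

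During mitosis the kinase CDK1 with its cyclins drives entry, the condensins and topoisomerase II fold the chromosomes, and kinetochores built on centromeric chromatin tie each chromosome to spindle microtubules. The spindle checkpoint holds back the anaphase-promoting complex (APC/C) until every kinetochore is attached, after which securin is degraded, separase cuts cohesin, and the midzone and contractile ring split the cell. Resting T cells in the spleen are quiescent, and stimulated CD8+ T cells divide many times within days. Many genes of this programme are transcribed late in the cell cycle, under complexes that read CHR and CCAAT elements in their promoters.

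The cell type in the labels was checked against its markers. The 8 CD8 T cell markers summed to 963 and 1167 FPKM in the Unstimulated libraries, 644 and 959 FPKM in the Control libraries and 1250 and 1122 FPKM in the SMF libraries, with none at 0 in any library, and Cd247, a T cell receptor signalling chain, was the most abundant. Cd8a itself was at 92.5 and 105 FPKM in the Unstimulated libraries, 35.5 and 60.0 FPKM in the Control libraries and 192 and 186 FPKM in the SMF libraries. Markers of B, NK and myeloid cells summed to less after culture. The 7 B cell markers summed to 172 and 126 FPKM in the Unstimulated libraries, 25.0 and 8.46 FPKM in the Control libraries and 4.85 and 2.71 FPKM in the SMF libraries, led by Cd79a at 57.2, 44.8, 13.4, 6.96, 1.85 and 2.43 FPKM. The 5 NK cell markers summed to 105, 76.0, 10.3, 8.02, 3.37 and 6.96 FPKM in the same order. Tyrobp, the most abundant NK marker over the 6 libraries together, stood at 59.9 and 52.7 FPKM in the Unstimulated libraries. It was listed at 0 in the other 4. The 8 myeloid markers summed to 133, 159, 47.0, 53.8, 41.1 and 50.5 FPKM, almost all of it after culture from Csf1r, and 7, 7, 7 and 6 of the 8 were at 0 in the stimulated libraries. The 6 germinal centre and plasma cell markers, which mark a dividing B cell population, summed to 16.1 and 9.44 FPKM in the Unstimulated libraries and to between 1.71 and 4.04 FPKM in the other 4. The 4 CD4 T cell markers summed to between 12.8 and 31.2 FPKM, and the 9 erythroid markers to between 1.51 and 26.6 FPKM. These markers moved with the comparison of stimulated and fresh cells, and their part in the results was not tested. In such bulk samples, fewer cells of a type and less RNA per cell cannot be told apart.

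The mitotic genes were near the floor of the measurement in fresh cells and rose almost together after stimulation. The median of the 54 genes was 1.28 and 1.57 FPKM in the Unstimulated libraries, 25.9 and 22.9 FPKM in the Control libraries and 37.7 and 36.5 FPKM in the SMF libraries. Their summed level was 434 and 429 FPKM before stimulation, 1751 and 1617 FPKM in Control cells and 2398 and 2206 FPKM in SMF cells. Of the 54, only 9 and 11 reached 10 FPKM in the Unstimulated libraries, against 41 and 44 in Control libraries and 50 and 49 in SMF libraries. Listings at 0 occurred in fresh cells alone, for 19 genes in Unstimulated 1 and 16 in Unstimulated 2, 12 of them in both. A listing at 0 is a weak statement at this depth: 1-fold coverage of a gene equals 11.1 FPKM in Unstimulated 1 and 5.76 FPKM in Unstimulated 2, and 12.9% and 6.15% of all protein-coding genes tested were also at 0 there. In Control 1, where 1-fold coverage equals 11.9 FPKM, 0 of the 54 were at 0.

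**Figure D1:**
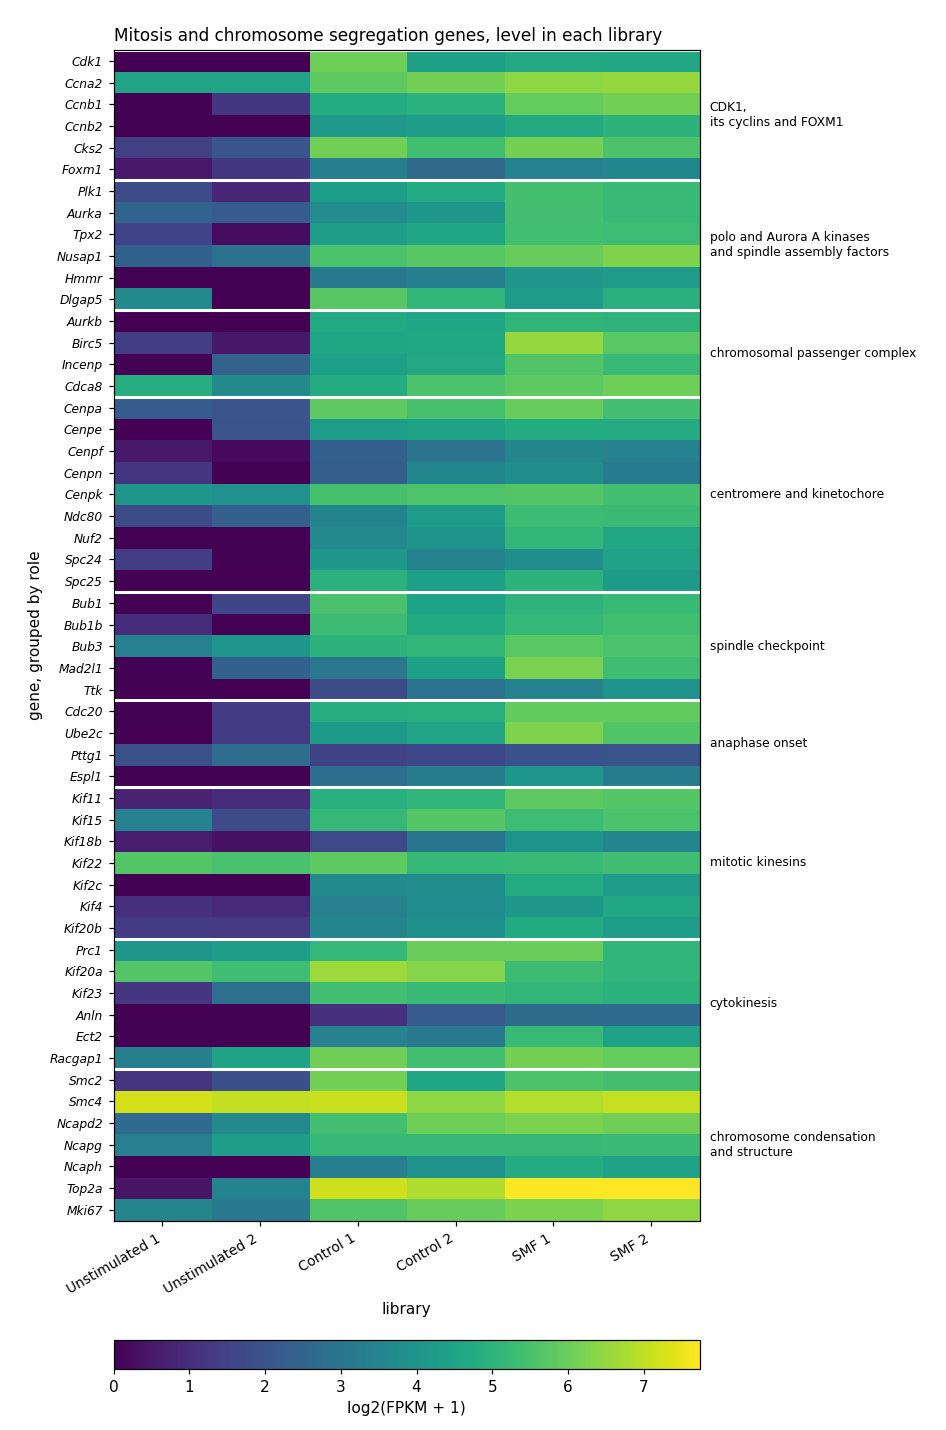
Level of each of the 54 genes in each of the 6 libraries, on the log2(FPKM + 1) scale, with the genes ordered by role. The 2 Unstimulated libraries have medians of 1.28 and 1.57 FPKM, and the 4 stimulated libraries medians of 22.9 to 37.7 FPKM. Fresh and stimulated libraries stand apart in nearly every gene but Kif22, Smc4, Pttg1, Kif20a and Cdca8.

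The first comparison asked how the genes changed with stimulation alone, Control against Unstimulated. A gene was called where the fold change on the FPKM + 1 scale was 2 or more and the limma p before adjustment was 0.05 or less. Of the 54 genes, 49 were called higher, where 12.3% of all genes tested were called higher, and 0 were called lower, where 12.6% of all genes were. After Benjamini-Hochberg adjustment over all genes, 35 of the 54 were higher at an adjusted p of at most 0.05, beside 4.52% of all genes. Both Control libraries lay above both Unstimulated libraries for 50 of the 54, against 24.8% of all genes. The median log2 difference was 3.06 over the 54 genes and -0.05 over all genes. Since a pseudocount shapes the difference of a gene listed at 0, the 31 genes above 0 in both Unstimulated libraries were also taken alone, and they had 26 calls and a median of 2.31. The 12 genes at 0 in both passed the filter through the stimulated libraries alone and so had to be higher there. The same holds for genes with a fresh mean under 1 FPKM, such as Ccnb1 and Cdc20, and Cenpf and Kif11 among the 31. All of these are part of the counts and medians over the 54 genes, here and by role. Those counts and medians, and the ones over the 31, are a description for that reason. No p against fresh cells is given below for genes that passed only in this way. The rise was seen within each run. In the first run 49 genes were at least 2-fold higher in Control (23.3% of all genes), with a median log2 difference of 2.80, and in the second run 48 were (21.8% of all genes), with a median of 2.84; 47 were so in both, beside 11.4% of all genes. The 5 genes not called were Cdca8, Pttg1, Kif22, Kif20a and Smc4.

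The cells stimulated in the field stood in the same relation to the same 2 Unstimulated libraries. Of the 54 genes, 49 were called higher, where the share of all genes was 22.4%, and 0 were called lower, where it was 14.8%. The adjusted p was at most 0.05 for 46 genes, beside 14.2% of all genes, the stimulated libraries lay clear above the fresh ones for 50, beside 39.7%, and the median log2 difference was 3.50, beside 0.27 over all genes. These values again include the 12 genes at 0 in both fresh libraries. The 31 genes above 0 in both, with the limit given above, had 27 calls and a median of 3.01. The genes not called were Dlgap5, Pttg1, Kif22, Kif20a and Smc4. In this comparison the stimulation, the field and the run changed together.

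**Figure D2:**
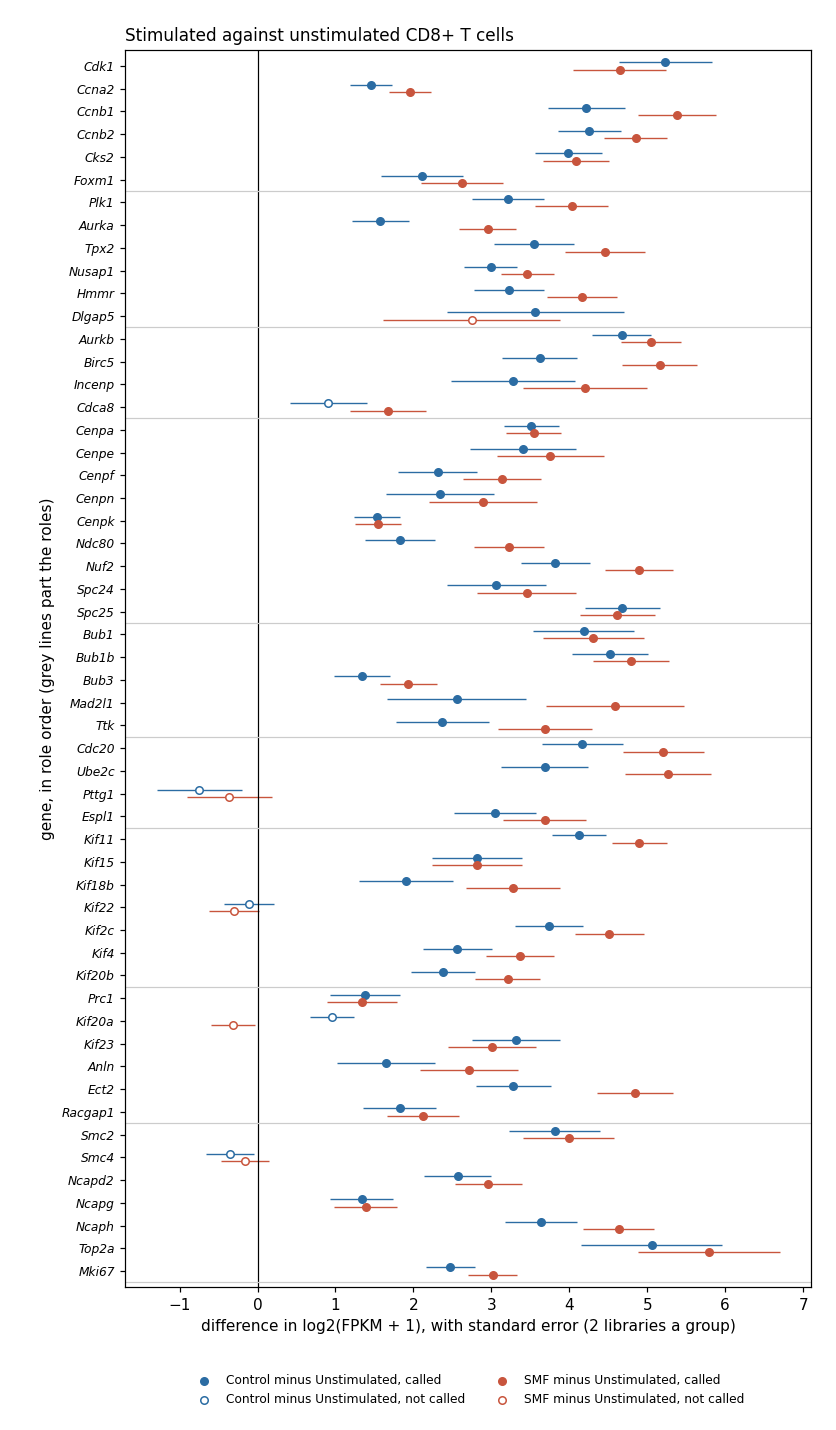
Log2 difference of each gene between stimulated and Unstimulated cells, for Control and for SMF, with bars of 1 standard error from limma and n = 2 libraries a group. The medians are 3.06 and 3.50, and Pttg1, Kif22 and Smc4 lie at or under 0 in both.

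Mitotic entry came first in this order of roles. All 6 genes of the CDK1 group were called higher in both comparisons, although Cdk1 lost its call in Control on protein-coding transcripts alone. Cdk1 (chr10:69335146-69352938, the mitotic kinase itself) was listed at 0 in both Unstimulated libraries and stood at 64.8 and 20.5 FPKM in Control and 24.3 and 23.8 FPKM in SMF cells. All 4 stimulated libraries were above the fresh ones, Control 1 being the highest by far. Ccnb1 (chr13:100778650-100786570), the B-type cyclin that activates CDK1, was at 0 and 1.39 FPKM in fresh cells, 25.9 and 29.8 FPKM in Control and 59.8 and 66.9 FPKM in SMF cells, with no overlap between any of the 3 groups. Its log2 difference from fresh cells was 4.22 ± 0.50 (SE, n = 2) in Control and 5.38 ± 0.50 (SE, n = 2) in SMF cells. Ccna2 (chr3:36564865-36572150), the cyclin of S phase and early mitosis, was the gene of the group with a clear level in fresh cells, 21.9 and 22.0 FPKM, and reached 55.2 and 69.4 FPKM in Control and 85.6 and 90.1 FPKM in SMF cells. That base level lay on exons that Ccna2 shares with a neighbour, as described further on. Ccnb2, another B-type cyclin, went from 0 in both fresh libraries to between 17.0 and 31.0 FPKM. Cks2, a small CDK-binding subunit, went from 1.76 and 3.15 FPKM to between 41.4 and 68.1 FPKM. Foxm1, the transcription factor that drives many genes of this stage, stayed low, at 0.431 and 1.41 FPKM in fresh cells and between 5.33 and 11.2 FPKM after stimulation.

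The kinases and factors that build the spindle were called higher in 6 of 6 cases in Control and 5 of 6 in SMF cells. Nusap1 (chr2:119618298-119651244), a microtubule-bundling protein, was at 4.25 and 6.45 FPKM in fresh cells, 45.9 and 51.7 FPKM in Control and 60.3 and 76.2 FPKM in SMF cells. The groups did not overlap, and the log2 difference was 2.99 ± 0.34 (SE, n = 2; adjusted p = 0.0110) for Control and 3.46 ± 0.34 (SE, n = 2; adjusted p = 0.00436) for SMF. Plk1, the polo kinase of mitotic entry and spindle poles, rose from 2.51 and 0.785 FPKM to 18.8 and 26.3 FPKM in Control and 43.0 and 36.9 FPKM in SMF cells. Tpx2, which activates Aurora A on the spindle, and Hmmr, a spindle assembly factor, rose alongside it, Hmmr from 0 in both fresh libraries. Aurka, the Aurora A kinase, had a smaller rise in Control, from 4.64 and 3.72 FPKM to 12.4 and 16.6 FPKM. Dlgap5 (chr14:47387779-47418407), which stabilises kinetochore fibres, varied most between libraries of a group: it was at 12.1 and 0 FPKM in fresh cells, 51.6 and 33.8 FPKM in Control and 18.4 and 29.3 FPKM in SMF cells. The stimulated libraries were all higher than the fresh ones, but with a standard error of 1.13 the log2 difference of 2.75 in SMF cells missed the call (limma adjusted p = 0.128).

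Aurora B works in the chromosomal passenger complex, which corrects wrong attachments. Aurkb, its kinase, was at 0 in both Unstimulated libraries, 25.8 and 23.2 FPKM in Control and 32.8 and 31.5 FPKM in SMF cells. The 2 libraries of each group were close. Birc5 (survivin), a complex subunit, rose from 1.72 and 0.418 FPKM to 23.0 and 23.3 FPKM in Control and 90.0 and 53.0 FPKM in SMF cells, and Incenp, the scaffold, from 0 and 4.58 FPKM to between 19.5 and 49.3 FPKM. Cdca8 (borealin, chr4:124918465-124939311) was at 27.5 and 11.7 FPKM in fresh cells, 26.0 and 46.1 FPKM in Control and 55.8 and 63.8 FPKM in SMF cells. Its Control and Unstimulated libraries overlapped, with a log2 difference of 0.91 ± 0.49 (SE, n = 2; limma adjusted p = 0.299), while both SMF libraries lay above both fresh ones, with a log2 difference of 1.67 ± 0.49 (SE, n = 2; limma adjusted p = 0.0546).

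All 9 centromere and kinetochore genes were called higher in both comparisons. On protein-coding transcripts alone, Cenpa and Cenpn were not called in Control. The 4 subunits of the Ndc80 complex, which grips the microtubule end, differed in their starting point. Nuf2 and Spc25 (chr2:69193895-69206194) were listed at 0 in both fresh libraries, Ndc80 was at 2.37 and 4.19 FPKM, and Spc24 at 1.69 and 0 FPKM. After stimulation Spc25 stood at 30.6, 19.9, 31.4 and 17.6 FPKM in Control 1, Control 2, SMF 1 and SMF 2, so that the libraries of the 2 stimulated groups were interleaved, all above the fresh cells. Cenpa, the histone H3 variant that marks the centromere, rose from 3.76 and 3.09 FPKM to between 42.1 and 60.4 FPKM. Cenpe, a kinetochore motor, rose from 0 and 3.04 FPKM to between 19.1 and 26.2 FPKM, and the large kinetochore protein gene Cenpf from 0.448 and 0.142 FPKM to between 4.22 and 10.7 FPKM. Cenpn, a reader of centromeric nucleosomes, was between 4.08 and 13.5 FPKM after stimulation. Cenpk (chr13:104228611-104252392), a subunit of the inner kinetochore, began at 16.1 and 14.2 FPKM and had the smallest differences of the 9, 1.53 ± 0.29 in Control and 1.54 ± 0.29 in SMF cells on the log2 scale (SE, n = 2; limma adjusted p = 0.0327 and 0.0171).

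The 5 spindle checkpoint genes were also called higher in both, but Bub3 and Mad2l1 were not called in Control on protein-coding transcripts alone. Bub1b (BubR1), which binds CDC20 in the inhibitory complex, rose from 0.978 and 0 FPKM to 38.7 and 25.4 FPKM in Control and 35.0 and 41.3 FPKM in SMF cells. Bub1, the kinetochore kinase, rose from 0 and 2.10 FPKM to between 21.4 and 44.6 FPKM, and Ttk (MPS1), the kinase that starts the signal, from 0 in both to between 2.49 and 14.8 FPKM. Bub3 (chr7:131560222-131571895), the partner of both BUB proteins, had a base level of 9.29 and 15.9 FPKM and reached 30.9 and 33.9 FPKM in Control and 53.6 and 45.6 FPKM in SMF cells. The groups did not overlap, and the log2 difference was 1.34 ± 0.36 (SE, n = 2; limma adjusted p = 0.0742) in Control. Mad2l1 (MAD2, chr6:66535390-66547220), the inhibitor passed on to CDC20, was at 0 and 4.27 FPKM in fresh cells, 7.48 and 20.4 FPKM in Control and 71.8 and 40.7 FPKM in SMF cells. Here too each group lay above the one before, with wide spread within all 3.

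At anaphase onset the 4 genes parted. Cdc20 (chr4:118432901-118437352), the activator of the APC/C, was at 0 and 1.57 FPKM in fresh cells, 27.4 and 28.2 FPKM in Control and 58.5 and 57.9 FPKM in SMF cells. The replicates lay close together after stimulation, and the log2 difference from fresh cells was 4.17 ± 0.52 (SE, n = 2) in Control. Ube2c (chr2:164769898-164778822), the ubiquitin-conjugating enzyme of the APC/C, was at 0 and 1.56 FPKM, then 17.6 and 21.8 FPKM in Control and 75.2 and 48.8 FPKM in SMF cells, and Espl1 (separase) rose from 0 in both to between 5.95 and 15.9 FPKM. Pttg1 (securin, chr11:43420250-43426251), the inhibitor of separase, did not rise: it was at 2.77 and 5.87 FPKM in fresh cells, 1.87 and 2.20 FPKM in Control and 2.88 and 3.03 FPKM in SMF cells. Both Control libraries lay under both fresh ones, and the log2 difference was -0.75 ± 0.55 (SE, n = 2; limma adjusted p = 0.422). Every value but that of Unstimulated 2 was under the level that 1-fold coverage has in its own library.

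Of the 7 mitotic kinesins, 6 were called higher in each comparison. Kif11 (Eg5), the motor that pushes spindle poles apart, rose from 0.690 and 0.964 FPKM to 28.9 and 32.6 FPKM in Control and 56.1 and 50.8 FPKM in SMF cells. Kif2c, a microtubule depolymerase at centromeres, was at 0 in both fresh libraries and between 11.7 and 26.0 FPKM after stimulation. Kif15, which backs up KIF11, was called as well, and so were Kif18b, which acts on microtubule plus ends, the chromosome motor Kif4 and the midbody kinesin Kif20b. Kif22 (chr7:127027729-127042471), the chromosome-arm motor, was at 49.7 and 45.3 FPKM in fresh cells, 55.0 and 35.3 FPKM in Control and 36.2 and 40.3 FPKM in SMF cells. Control and fresh libraries overlapped, with a log2 difference of -0.10 ± 0.32 (SE, n = 2; limma adjusted p = 0.873), and both SMF libraries were lower than both fresh ones by less than the call. Its direction turned with the transcript: the coding transcript of 2115 bases was at 9.69 and 2.07 FPKM in fresh cells, 24.8 and 18.9 FPKM in Control and 20.6 and 20.1 FPKM in SMF cells. Taken alone, this most abundant transcript was called higher in both comparisons, by 1.98 and 1.90 on the log2 scale. On the exons that face no other gene the gene differed by 0.65 and 0.75, which were not called.

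Among the 6 cytokinesis genes, 5 were called higher in each comparison, but Prc1 was called in neither on protein-coding transcripts alone (0.31 in both on the log2 scale), and Anln lost its call in Control with the replicate number as a block. Ect2 (chr3:27097222-27153878), the exchange factor that switches on RhoA at the cell equator, was at 0 in both fresh libraries, 9.82 and 7.76 FPKM in Control and 36.7 and 20.8 FPKM in SMF cells. Kif23 and Racgap1, the partners in centralspindlin, rose from 1.34 and 6.17 FPKM to between 30.2 and 42.0 FPKM, and from 9.19 and 21.1 FPKM to between 41.0 and 69.1 FPKM. Anln (anillin), the scaffold of the contractile ring, went from 0 in both to between 1.10 and 5.61 FPKM, and Prc1, the midzone bundler, from 16.1 and 18.8 FPKM to between 32.9 and 62.7 FPKM. Kif20a, a midzone kinesin, was at 49.9 and 40.3 FPKM in fresh cells, 96.0 and 80.3 FPKM in Control and 38.7 and 33.2 FPKM in SMF cells. Control lay above fresh cells and SMF below them without overlap, and the log2 difference from fresh cells was 0.95 ± 0.28 in Control (SE, n = 2; limma adjusted p = 0.0928), just under 2-fold, and -0.32 ± 0.28 in SMF (SE, n = 2; limma adjusted p = 0.443).

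Chromosome structure held the most abundant genes. Top2a (chr11:98992943-99024189), the topoisomerase that untangles sister chromatids, was at 0.337 and 9.97 FPKM in fresh cells, 143 and 112 FPKM in Control and 213 and 210 FPKM in SMF cells. It was the highest of the 54 genes in every stimulated library, and its log2 difference was 5.06 ± 0.91 (SE, n = 2; limma adjusted p = 0.0278) in Control and 5.79 ± 0.91 (SE, n = 2; limma adjusted p = 0.0104) in SMF cells, with the 2 fresh libraries far apart. Mki67 (Ki-67), which coats mitotic chromosomes, rose from 10.5 and 7.64 FPKM to 49.3 and 60.0 FPKM in Control and 73.8 and 86.3 FPKM in SMF cells. The condensin subunit genes Smc2, Ncapd2, Ncapg and Ncaph were all called higher in both. Smc4 (chr3:69004738-69034623), which pairs with SMC2 in the condensin core, was the highest of the 54 in fresh cells at 149 and 129 FPKM, and stood at 139 and 84.8 FPKM in Control and 116 and 133 FPKM in SMF cells. Its groups overlapped in both comparisons, while Smc2 went from 1.23 and 2.71 FPKM to 68.4 and 22.6 FPKM in Control and 46.4 and 43.2 FPKM in SMF cells.

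The promoters were read to see what these genes shared in sequence. RefSeq promoters on GRCm38.p6 (250 bases before to 50 after the start) were found for 45 of the 54. Letters searched on both strands were TTTGAA or TTCGAA for the CHR, CCAAT for the CCAAT box, and TTTGGCGC, TTTGCCGC, TTTCGCGC or TTTCCCGC for E2F. No motif of 1 kind contains a motif of another, and on the other strand TTTGAA reads TTCAAA and CCAAT reads ATTGG. The CHR letters were in 35 of the 45 (77.8%), against 21.7% of all 27025 promoter symbols and 17.0% of the 8822 that were tested. CCAAT was in 34 (75.6%), against 41.1% and 42.5%, and both were in 30 (66.7%), against 8.61% and 7.11%. The E2F letters were in 4 (8.89%), against 2.6% and 4.74%. The sequences below are the 120 bases before the outermost annotated start of 4 genes called higher and of Kif22, which was not called by its gene sum. Capitals mark the motifs.
Cdk1, chr10:69352939-69353058, minus strand: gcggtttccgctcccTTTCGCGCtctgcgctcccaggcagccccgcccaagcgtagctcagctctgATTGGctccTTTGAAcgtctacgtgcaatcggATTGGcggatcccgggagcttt
Top2a, chr11:99024190-99024309, minus strand: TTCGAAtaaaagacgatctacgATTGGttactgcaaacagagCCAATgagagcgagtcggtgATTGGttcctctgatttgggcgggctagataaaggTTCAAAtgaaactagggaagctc
Cdc20, chr4:118437353-118437472, minus strand: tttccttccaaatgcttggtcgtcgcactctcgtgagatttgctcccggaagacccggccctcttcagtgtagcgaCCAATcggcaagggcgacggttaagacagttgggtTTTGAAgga
Spc25, chr2:69206214-69206333, minus strand: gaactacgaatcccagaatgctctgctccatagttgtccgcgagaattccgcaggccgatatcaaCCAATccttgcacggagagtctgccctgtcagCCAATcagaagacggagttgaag
Kif22, chr7:127042472-127042591, minus strand: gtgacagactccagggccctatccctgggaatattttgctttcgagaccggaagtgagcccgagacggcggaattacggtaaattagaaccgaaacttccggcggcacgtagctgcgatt
In these 120 bases Cdk1 held 1 CHR, 2 CCAAT and 1 E2F match, Top2a 2 CHR and 3 CCAAT matches, Cdc20 1 of each of the first pair, Spc25 2 CCAAT matches and Kif22 none. Ccnb1, Ccnb2 and Ube2c, called higher and read in the same way, held 1, 3 and 2 CCAAT matches and no CHR match there, so that 3 of the 7 genes called higher had a CHR match in these bases. Over the full 300 bases Spc25, Ccnb2 and Ube2c held CHR letters as well, and Ccnb1 did not. In that window Kif22 held both CHR and CCAAT letters, and Pttg1 held neither. A match is a description of the letters in this window.

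Several of the genes that started high share exon bases with a gene on the opposite strand, and the level was therefore taken exon by exon, from the mean coverage of each exon on the FPKM scale. Of the 54 genes, 12 share exon bases with a gene on the other strand, 3 more with a gene on the same strand, and 39 with none. Ccna2 faces Exosc9, an exosome subunit gene, over 510 bases. On its exons that share bases Ccna2 was at 45.8 and 45.9 FPKM in fresh cells, 96.1 and 107 FPKM in Control and 128 and 145 FPKM in SMF cells. On its other exons it was at 0 and 0 in fresh cells, 7.70 and 16.7 FPKM in Control and 25.1 and 21.5 FPKM in SMF cells. The whole of its level in fresh cells thus lay on the exons that share bases. Cenpk, which faces Ppwd1 over 233 bases, was at 55.7 and 49.1 FPKM in fresh cells on the exons that share bases and at 0 and 0 on the others, where Control reached 2.69 and 2.50 FPKM and SMF 4.90 and 5.98 FPKM. Cdca8 was at 0 and 0.711 FPKM in fresh cells on its other exons, 7.85 and 8.84 FPKM in Control and 15.6 and 14.1 FPKM in SMF cells, and there the groups no longer overlapped.

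Kif20a faces the APC/C subunit gene Cdc23 over 1259 bases. On the exons that share bases it was at 120 and 89.8 FPKM in fresh cells, 220 and 183 FPKM in Control and 53.0 and 48.1 FPKM in SMF cells. On its other exons it was at 8.72 and 10.8 FPKM in fresh cells, 22.6 and 19.7 FPKM in Control and 27.6 and 22.4 FPKM in SMF cells, so that the order of the groups differed between the 2 kinds of exon. With only the other exons, Kif20a was called higher in Control (1.04 ± 0.34, SE, n = 2; limma adjusted p = 0.117) and in SMF cells (1.27 ± 0.34, SE, n = 2; limma adjusted p = 0.0442), and SMF and Control differed by 0.23 ± 0.34 (SE, n = 2; limma adjusted p = 0.737). With such exons left out for all 12 genes, 51 of the 54 were called higher in Control (12.3% of all genes) and 50 in SMF cells (22.4% of all genes), with medians of 3.14 and 3.69. Pttg1, Kif22 and Smc4 were the 3 not called in Control, and Dlgap5 joined them in SMF cells. Among the 39 genes that share no exon bases, 37 and 36 were called higher as deposited, beside the same 12.3% and 22.4% of all genes, with medians of 3.28 and 3.76. The facing genes were read in the same way, and they differed. In Control, Exosc9 was at 1715 and 1851 FPKM on its exons that share bases and at 2.66 and 2.89 FPKM on its others. Cdc23 was at 209 and 254 FPKM against 5.46 and 3.40 FPKM. Ppwd1 went the other way, at 2.11 and 1.60 FPKM against 8.50 and 9.21 FPKM. The files were made with a setting for stranded reads. Whether reads of the other strand entered these exons, in the members or in the facing genes, was not tested.

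**Figure D3:**
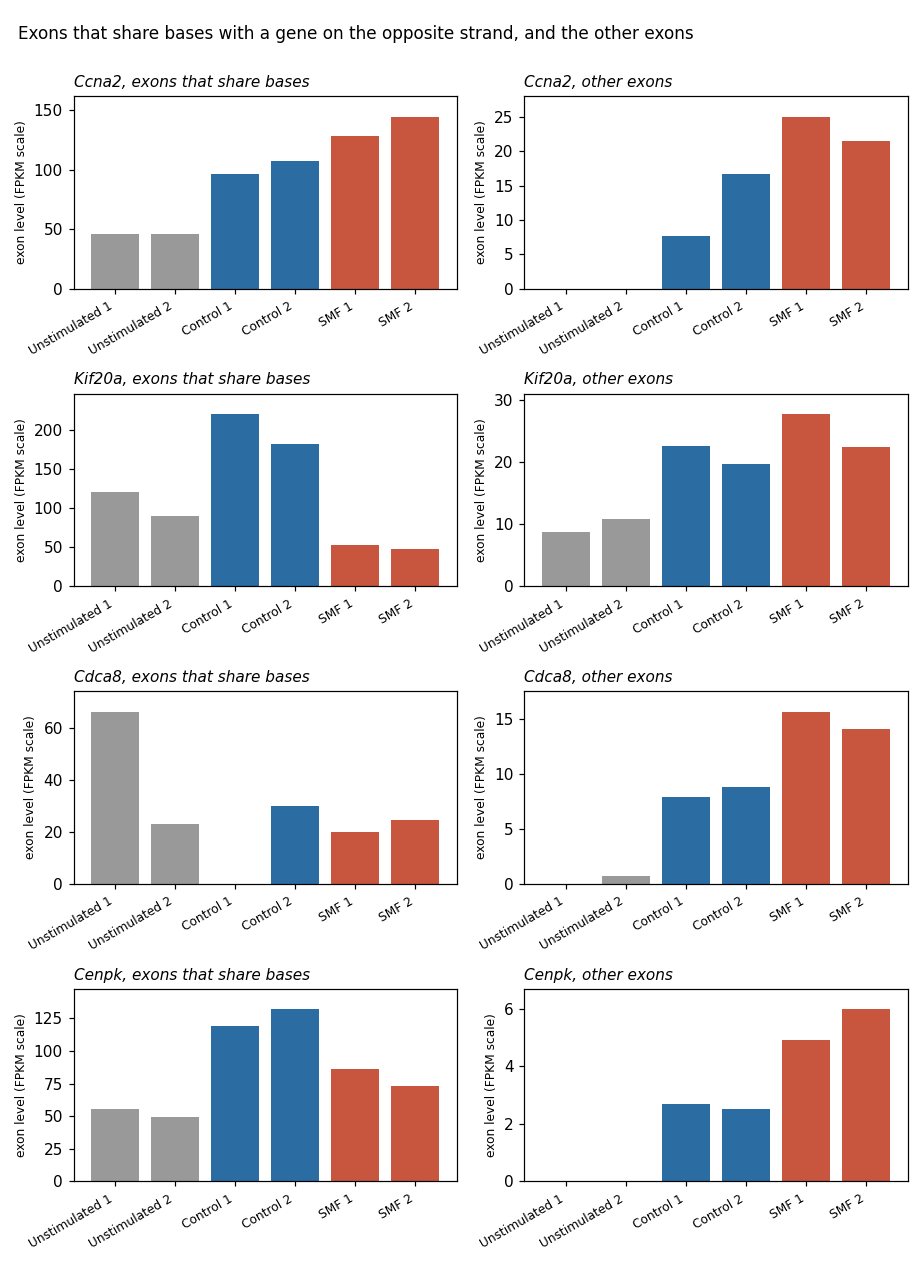
Bars give the exon level (FPKM scale, a separate axis for each panel) in each of the 6 libraries for Ccna2, Kif20a, Cdca8 and Cenpk, on exons that share bases with an opposite-strand gene (left) and on the other exons (right). The fresh cells of Ccna2 and Cenpk are at 0 on the right, and the SMF libraries of Kif20a are the lowest on the left, at 53.0 and 48.1, and above the fresh ones on the right, at 27.6 and 22.4.

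The gene level is a sum over transcripts, and not all of them code for protein. The most abundant transcript was protein coding in 48 of the 54 genes, a retained-intron transcript in 4, a transcript marked for nonsense-mediated decay in 1 and a processed transcript in 1. The median share of a gene's FPKM on protein-coding transcripts was 79.7%, with 24 genes at 90% or more and 10 under 50%. The share over all 54 was 58.6%, 58.0%, 55.1%, 71.2%, 80.3% and 76.5% from Unstimulated 1 to SMF 2, so it differed between the SMF and the Control libraries and between the 2 Control libraries. Cdk1 shows it at the level of the gene: a retained-intron transcript of 475 bases was at 56.0 and 10.3 FPKM in Control and 11.7 and 3.82 FPKM in SMF cells, while the coding transcript of 4375 bases was at 0.488 and 5.59 FPKM in Control and 10.04 and 18.1 FPKM in SMF cells. By coding transcripts SMF cells thus lay above Control cells, and by the gene sum they did not. With protein-coding transcripts alone, 43 of the 54 genes were called higher in Control against Unstimulated, beside 14.1% of all genes, and 49 in SMF against Unstimulated, beside 30.6%. The calls lost in Control were those of Cdk1, Cenpa, Cenpn, Bub3, Mad2l1 and Prc1, and in SMF cells that of Prc1, while Dlgap5 gained a call there. Coding levels in Control were 0 and 6.33 FPKM for Cenpa, 0 and 0 FPKM for Cenpn, 14.3 and 30.7 FPKM for Bub3 and 0.284 and 20.4 FPKM for Mad2l1, so that Control 1 was the lower library for each but Cenpn. The lowest coding share was that of Cenpk, 4.35%, whose level came mostly from a transcript marked for decay. Smc4 had 71.0 and 53.2 FPKM on coding transcripts in fresh cells, 58.1 and 68.9 FPKM in Control and 102 and 120 FPKM in SMF cells, and Kif22 had 23.1 and 17.1, 43.5 and 20.2, and 29.2 and 31.5 FPKM.

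**Figure D4:**
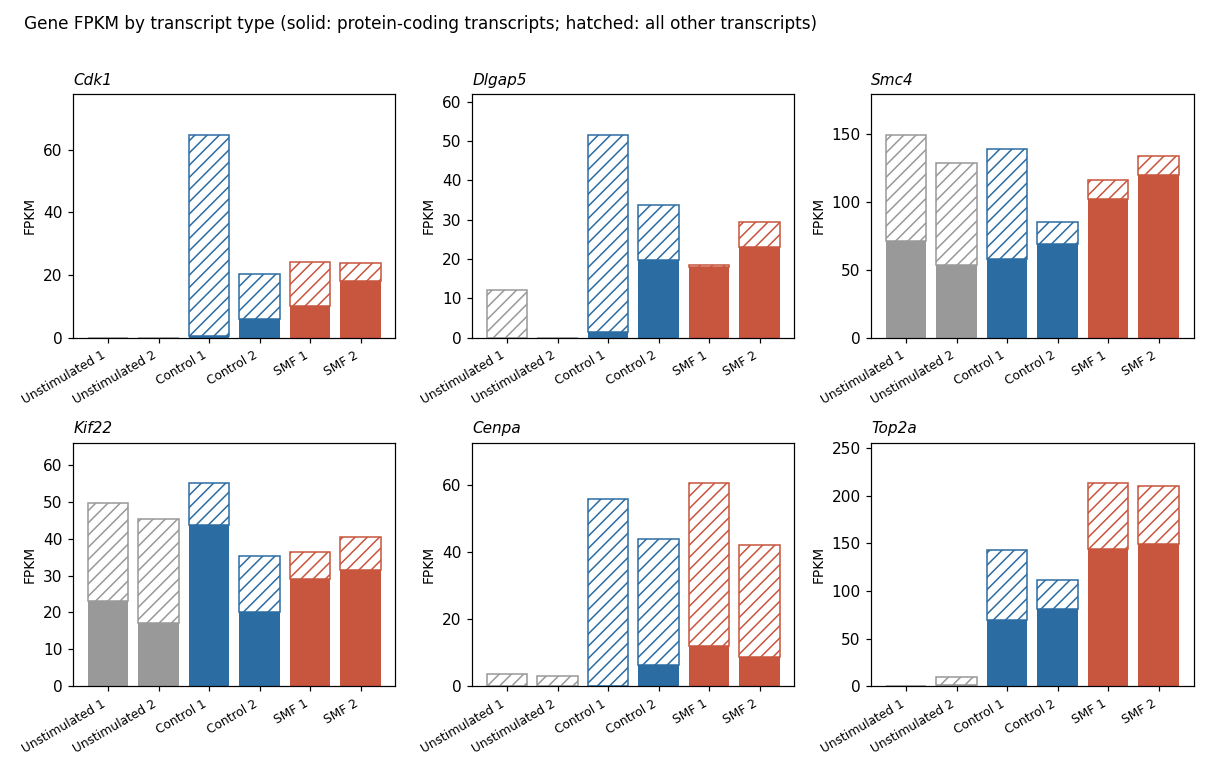
Stacked bars give the FPKM of Cdk1, Dlgap5, Smc4, Kif22, Cenpa and Top2a in each of the 6 libraries, solid for protein-coding and hatched for all other transcripts. Nearly all of the Cdk1 bar of Control 1, 64.8 FPKM, is hatched, and the solid part of Smc4 is highest in the SMF libraries, at 102 and 120 FPKM.

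The last comparison set SMF against Control, in which the field and the run changed together. Of the 54 genes, 6 were called higher, a share of 11.1% where 12.5% of all genes were called higher, and 1 was called lower, where 5.72% of all genes were. None reached an adjusted p of 0.05 in limma, the smallest being 0.141, and the 7 genes called were those with a p of 0.05 or less before adjustment. Among all genes 3 rose (0.02%) and 1 fell (0.00667%) at that level. The direction was shared more widely: the mean was higher in SMF cells for 47 of the 54, against 60.2% of all genes, and 34 genes (63.0%) showed no overlap, with each SMF library above each Control library, against 37.4% of all genes. The median log2 difference was 0.58, but all genes together were also higher in SMF cells, with a median of 0.32. Relative to that shift the median of the 54 was 0.26, with 37 genes above it and 17 below. All-gene calls were 1868 higher and 857 lower as deposited, and 877 higher and 1441 lower once the libraries were shifted to a common median, where 3 of the 54 genes were called higher. Protein-coding genes held 69.2% and 68.7% of all FPKM in the SMF libraries and 49.1% and 50.5% in the Control libraries. As a share of the FPKM of protein-coding genes, the 54 genes summed to 0.664% and 0.588% in Control and 0.709% and 0.648% in SMF cells, which overlap.

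The 6 genes called higher were Aurka, Birc5, Ndc80, Nuf2, Ube2c and Ect2. Aurka was at 12.4 and 16.6 FPKM in Control and 41.7 and 36.4 FPKM in SMF cells, a log2 difference of 1.38 ± 0.37 (SE, n = 2; limma adjusted p = 0.159). Birc5, at 23.0 and 23.3 FPKM in Control and 90.0 and 53.0 FPKM in SMF cells, differed by 1.54 ± 0.48 (SE, n = 2; limma adjusted p = 0.179). Ube2c, with the levels given above, differed by 1.58 ± 0.56 (SE, n = 2; limma adjusted p = 0.201) and Ect2 by 1.56 ± 0.48 (SE, n = 2; limma adjusted p = 0.178). In none of these 4 did the groups overlap. Ndc80 rose from 10.3 and 18.6 FPKM to 38.8 and 37.7 FPKM, and Nuf2, its partner, from 11.4 and 15.1 FPKM to 34.1 and 24.2 FPKM. On coding transcripts Ndc80 was at 9.48 and 15.8 FPKM in Control and 38.5 and 10.5 FPKM in SMF cells, which overlap, and its call was lost (0.68 ± 0.71, SE, n = 2; limma adjusted p = 0.565). Mad2l1 had the largest difference of the 54, 2.03 ± 0.89 (SE, n = 2; limma adjusted p = 0.258), and was not called. Kif20a was the 1 gene called lower, by -1.27 ± 0.28 (SE, n = 2; limma adjusted p = 0.141), a difference that lay on the exons facing Cdc23. The calls were sensitive to single libraries: without SMF 1 none of the 54 was called higher (5.61% of all genes), without SMF 2 there were 3 (6.43%), and without Control 1 there were 2 (7.49%). Without Unstimulated 1, Unstimulated 2 and Control 2 there were 9 (11.1%), 8 (11.1%) and 6 (15.2%). On protein-coding transcripts alone 10 of the 54 were called higher, where 17.7% of all genes were.

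**Figure D5:**
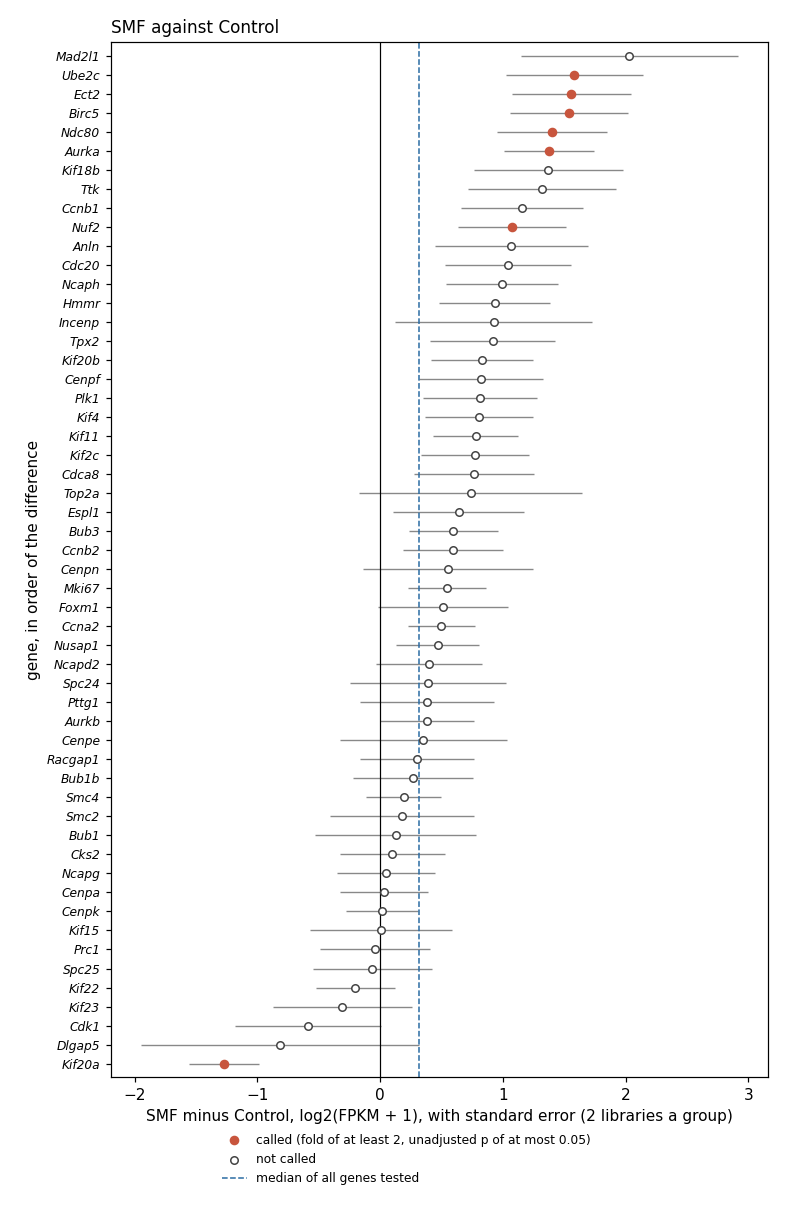
Log2 difference of each of the 54 genes between SMF and Control cells, with bars of 1 standard error from limma and n = 2 libraries a group, beside the median of all genes tested (0.32). Most genes lie between 0 and 1.58, Mad2l1 is at 2.03 with an error of 0.89, and Kif20a is at -1.27.

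The same steps in division need further genes, and 118 of them were followed beside the 54, all of them tested. In Control cells 54 of the 118 were called higher and 3 lower, where 12.3% and 12.6% of all genes were, with a median log2 difference of 1.33 beside -0.05 over all genes. In SMF cells 79 were called higher and 5 lower, where 22.4% and 14.8% of all genes were, with a median of 2.06 beside 0.27. The 118 include genes at 0 in both fresh libraries, such as Ckap2 and Esco2, which passed the filter through the stimulated libraries alone. These counts and medians against fresh cells, and those by list below, are therefore a description. Among 17 APC/C subunits and regulators 7 were called higher in Control, among 15 cohesin genes 5, and among 18 further spindle, midbody and condensin II genes 13. The largest difference of the APC/C list was that of Cdc23, 4.10 on the log2 scale, from 12.9 and 9.43 FPKM to 204 and 207 FPKM in Control. Its Control level lay mostly on the exons shared with Kif20a, as given above. Ckap2, a spindle protein gene, was at 0 in both fresh libraries and at 12.1, 25.1, 14.8 and 22.6 FPKM in the stimulated ones. Esco2, which acetylates cohesin in S phase, was at 0 in both fresh libraries and at 5.11, 16.0, 17.1 and 29.7 FPKM after stimulation. Stag1, a cohesin subunit, had a level in fresh cells already, 20.2 and 11.4 FPKM, and was at 8.28 and 7.95 FPKM in Control and 24.7 and 21.7 FPKM in SMF cells, so that Control lay under both fresh libraries and SMF above them. Of 32 further centromere and kinetochore genes 16 were called higher and 1 lower. That 1 was Haspin, the kinase that marks histone H3 for Aurora B, at 193 and 119 FPKM in fresh cells, 14.2 and 9.27 FPKM in Control and 12.6 and 15.6 FPKM in SMF cells. Only exon bases shared with other genes were looked for. Whether any of this level in total RNA came from an intron of another gene was not tested.

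Of 16 kinases and phosphatases of mitotic entry and exit 6 were called higher, with Wee1, the inhibitor of CDK1, moving from 0 and 0.185 FPKM to 13.2 and 5.62 FPKM in Control and 7.17 and 9.71 FPKM in SMF cells. Of 20 E2F, pocket protein and MuvB genes 7 were called higher and 2 lower in Control. Mybl2 (B-Myb), the MuvB partner that activates late cell-cycle genes, was at 1.70 and 0.747 FPKM in fresh cells, 5.23 and 13.3 FPKM in Control and 23.5 and 42.1 FPKM in SMF cells. Rb1, the retinoblastoma protein gene that holds E2F back, was at 603 and 437 FPKM in fresh cells, 61.7 and 50.2 FPKM in Control and 38.6 and 34.6 FPKM in SMF cells, and it shares exon bases with Rcbtb2 and Lpar6 on the opposite strand. Against Control, 27 of the 118 were called higher in SMF cells and 3 lower, where 12.5% and 5.72% of all genes were. The median log2 difference was 0.85, beside 0.32 over all genes. The run changed with the field here as well. For the 118, these counts were not repeated under the other scalings or with single libraries left out.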

How the data were processed

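A stranded low-input kit was used for RNA-seq of total RNA. The authors trimmed reads with Trimmomatic 0.36 and aligned them with HISAT2 to mm10, per the submitters' processing notes, and the deposited transcript FPKM values came from StringTie 1.3.5 with the GENCODE M19 annotation, per the file headers, with reads set as stranded. The deposited TPM values served as an alternative, and the deposited coverage (mean read depth per base) gave depth and exon levels. Read counts are not used here, so no counting intervals are given. A table of the whole series has 3 value columns that match no sample; these were not used.

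Gene FPKM was summed over transcripts, whose types were taken from the reference annotation by transcript identifier. Genes averaging 1 FPKM or more were fitted as log2(FPKM + 1) with limma 3.58.1 (R 4.3.3; linear model on the 3 groups, variance trend, 3 residual degrees of freedom), with Benjamini-Hochberg adjustment over 14991 genes. Differences on this scale understate changes of low genes. The script was tested on simulated data. Genes given with full statistics came from the most abundant of each role and the 3 largest and 3 smallest differences in each comparison. They also came from the genes called in SMF against Control and those higher in Unstimulated than in Control cells. Other genes of the lists were taken from the 2 largest and 2 smallest differences in each list, and further genes are given as values. The 54 genes and all lists were chosen with earlier results of these data known.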

Additional observations from a re-analysis of the deposited data

Results flagged for a closer look

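Kif20a, the midzone kinesin gene, lay on opposite sides of fresh cells in the 2 stimulated groups: both Control libraries were above both Unstimulated libraries and both SMF libraries below them. Neither difference from fresh cells passed the call (0.95 in Control and -0.32 in SMF on the log2 scale). The SMF and Control levels differed by -1.27 on the log2 scale (limma adjusted p = 0.141; lower in 2 of 2 SMF libraries). The difference lay on the exons that face Cdc23 and was 0.23 on the other exons, where both stimulated groups were called higher than fresh cells (1.04 and 1.27). With 2 libraries a group, no search for a stray library within a group was made.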

How the results depend on the processing

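The counts called higher of the 54 genes against Unstimulated cells stayed within 1.5 times of the reported count under all 20 alternatives, and those of SMF against Control did not. There the count called higher was 2 with a pseudocount of 0.1 (10.3% of all genes), 3 with libraries shifted to a common median (5.85%), 3 with a common sum over protein-coding genes (6.12%) and 10 on protein-coding transcripts only (17.7%); the cause was not tested. The count called lower was 0 with the most abundant transcript (5.63% of all genes) and 0 with facing exons left out (5.71%), and the most abundant transcript gave 2 called lower in Control against Unstimulated (10.9%). The 3 alternatives on exons and transcripts (protein-coding transcripts, covered bases per longest transcript, facing exons left out) were chosen after seeing the data.

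The median log2 difference in Control against Unstimulated was 4.29 with a pseudocount of 0.1, 1.76 with a pseudocount of 5, 3.39 with TPM, 2.66 with the most abundant transcript, 2.60 on protein-coding transcripts and 2.72 with covered bases. In SMF against Unstimulated it was 4.76, 2.35, 3.97, 3.36 and 3.61 for the first 5 of these, 3.62 with a mean of at least 5 FPKM, 3.25 with libraries shifted to a common median, 3.12 with a common sum over protein-coding genes and 3.69 with facing exons left out. In SMF against Control it was 0.73 with TPM, 0.72 with the most abundant transcript, 0.79 on protein-coding transcripts, 0.23 with the common median, 0.26 with the common sum and 0.74 with facing exons left out.

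Leaving out each library in turn gave medians of 2.84 to 3.11 in Control against Unstimulated, 3.45 to 3.62 in SMF against Unstimulated and 0.51 to 0.68 in SMF against Control, with 42 to 46, 45 to 49 and 0 to 9 genes called higher (9.99% to 12.5%, 15.3% to 22.5% and 5.61% to 15.2% of all genes) and 1 to 2 called lower in the last (3.51% to 7.36%). A group left with 1 library was assumed to vary like the others. Some differences near 0 turned sign. In Control against Unstimulated, Kif22 was 1.98 with the most abundant transcript, 0.56 on protein-coding transcripts, 0.25 with covered bases, 0.65 with facing exons left out and -0.42 to 0.21 over left-out libraries, and Smc4 was 0.041 on protein-coding transcripts and -0.70 to 0.0058 over left-out libraries. In SMF against Unstimulated, Kif22 was 1.90, 0.59 and 0.75 (most abundant transcript, protein-coding, facing exons left out), Smc4 was 1.39, 0.84 and 0.47 (most abundant transcript, protein-coding, covered bases), Kif20a was 2.24 and 1.27 (most abundant transcript, facing exons left out) and Pttg1 was -0.80 to 0.067 over left-out libraries. In SMF against Control, Cdk1 was 2.19 and 0.80 and Dlgap5 1.58 and 0.37 (protein-coding, covered bases), Kif20a was 0.23 with facing exons left out, and Cdk1 was -1.39 to 0.22 over left-out libraries, being 0.22 without Control 1.

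With the replicate number as a block, 48, 50 and 7 genes were called higher (12.1%, 22.4% and 12.3% of all genes) and 0, 0 and 1 lower (12.3%, 14.8% and 5.82%) in the 3 comparisons. Anln lost its call in Control against Unstimulated (1.65 on the log2 scale), Dlgap5 gained a call in SMF against Unstimulated, and in SMF against Control Nuf2 lost its call and Ccnb1 and Mad2l1 gained a call. The replicate differences of 2 groups correlated across genes at r = 0.0963 for Unstimulated with Control, 0.0301 for Unstimulated with SMF and 0.0206 for SMF with Control, so the numbers were not taken as pairs of cultures or animals. For Unstimulated and Control the number is also the sequencing run, whose within-run values stand in the report; for SMF it is not. Depth limits the precision of low levels, since 1-fold coverage equals 11.9 FPKM in the shallowest library, Control 1 (64.4 Mb), and 3.22 FPKM in the deepest, SMF 1 (259 Mb). Of the 54 genes, 0 were at 0 in Control 1 and 19 in Unstimulated 1 (67.4 Mb).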
